A study of Homo sapiens with 14 samples.

Results

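Ribosome footprints were set side by side along 2 CFTR constructs that carry the same native codon at Leu558 and differ at other synonymous codons. One is CFTR_WT-Leu558_within_High-abc (2 libraries, WT-Leu558-in-High-abc in the figures and the restored construct in the text), the High-abc sequence with its Leu558 codon returned to the native one. The other is CFTR_WT (WT, 5 libraries). These 7 of the 14 libraries were chosen by their titles, and no measured value entered the choice. The remaining 7 libraries repeat the same change of background with the replaced Leu558 codon: CFTR_High-abc (High-abc, 5 libraries) and CFTR_High-Leu558(UUA-to-CUC) (High-Leu558, 2 libraries), which is WT with only the Leu558 codon changed. All constructs encode the same protein and were overexpressed in HEK293, an immortalized human embryonic kidney line. The labels do not list which codons High-abc replaces, and they do not tie the replicates to separate cultures. The p-values therefore cover the spread of these libraries alone, and part of it may be technical.

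CFTR is an ATP-gated chloride channel of epithelia and a member of the ABC transporter family, built from a pair of membrane domains, a pair of nucleotide-binding domains (NBD1 and NBD2) and a regulatory region. NBD1 folds in part while the ribosome is still making the chain. Synonymous codons give the same amino acid but are read at different speeds, and a slowly read codon holds ribosomes longer, so it collects more of the nuclease-protected mRNA fragments that ribosome profiling counts. In GRCh38.p14 the endogenous gene spans positions 117480025 to 117668665 of chromosome 7. The constructs were expressed from introduced copies, and every position below is the residue of the protein to which the authors assigned a read.

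The 2 restored libraries held 17447 and 6909 CFTR reads, and the WT libraries held 2647 to 32630. Between 790 and 1337 residues had a read in the 7 libraries. The 20 residues at each end of the protein were left out. Libraries within a group did not place reads alike: at 18 strongly occupied residues outside residues 501 to 650, the share of reads that lay 1 residue further on was 4.43% and 4.91% in WT replicates 1 and 2, 14.6% in replicate 3, and 8.84% and 7.83% in replicates 4 and 5. It was 9.34% and 9.62% in the 2 restored libraries, 4.55% to 12.3% in High-abc, and 9.42% and 8.75% in High-Leu558. Across 314 residues, log2 levels of restored replicate 2 correlated with replicate 1 at r = 0.755 and with High-abc replicate 5 at 0.758. WT and High-abc libraries 4 and 5 with the groups of 2 make up 8 libraries with similar shares. A log2 change against WT is also given in these 8 where they move the fold by over 1.5 times, and likewise without a single library. Same-numbered WT and High-abc libraries deviated from their group means together (r from 0.368 to 0.562 for the 5 numbers, against -0.363 to 0.262 for the 20 other pairs). Deviations of the 2 restored libraries correlated with those of the WT libraries between -0.148 and 0.148, the highest with WT replicates 4 and 5. With 2 libraries these deviations are mirror images, so anything that both restored libraries share with a set is removed. Whether they belong to these sets is thus not known. In log2 levels, restored replicate 1 was also closest to High-abc replicate 5 (r = 0.808). The restored construct against WT and High-abc against High-Leu558 therefore each set libraries of 5 numbered sets against a group of 2, so that sets and background cannot be told apart in either alone. In the mean of both comparisons WT and High-abc enter with opposite signs. What same-numbered libraries share cancels there only as far as each number weighs the same in both groups. The weights were unequal: replicate 2 held 32630 of 52685 reads in WT and 5837 of 34623 in High-abc.

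With the native Leu558 codon in both constructs, no single residue passed the test against WT. By edgeR's quasi-likelihood test, 0 of 314 residues (0.0%) and 0 of 144 windows of 10 residues (0.0%) passed an adjusted p of 0.05, and DESeq2 called 0 of each. Of the residues, 16 (5.1%) had an unadjusted p under 0.05, 5 higher (1.59%) and 11 lower (3.5%) in the restored construct. DESeq2 gave 17. Of the windows, 5 (3.47%) did so in either tool. At 22 residues (7.01%) both restored libraries lay above every WT library, and at 9 (2.87%) both lay below. Of these 16 residues, 9 lay between residues 537 and 598 of NBD1.

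Leu558 itself was less occupied in the High-abc sequence, although its codon was the same. The WT libraries held 1.26%, 0.922%, 0.944%, 0.552% and 0.617% of CFTR reads there, and the restored libraries 0.332% and 0.232%. Both lay below every WT library. The means were 0.860% ± 0.287 (SD, n = 5, 467 reads) and 0.282% ± 0.0713 (SD, n = 2, 74 reads), which moved the residue from rank 7 to rank 49 of 1440 by occupancy. The log2 change of -1.62 (SE 0.70) had an unadjusted p of 0.0252 and did not pass in edgeR (adjusted p = 0.761). In the 8 libraries it was -1.03 (SE 0.57, unadjusted p = 0.0868 in edgeR). The exact two-sided permutation test of the percentages gave p = 0.0952, the smallest p that 5 against 2 libraries allow.

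The residue after it ran the other way. WT libraries held 0.0520%, 0.208%, 0.0756%, 0.311% and 0.291% of reads there, and the restored libraries 0.430% and 0.347%. Again the groups did not overlap. The log2 change there was 0.99 (SE 0.64), with an adjusted p of 0.82 in edgeR, and 0.37 (SE 0.54) in the 8 libraries, where WT replicates 4 and 5 lay close below the restored ones. Of the reads at both residues together, the latter held 3.95%, 18.4%, 7.41%, 36.0% and 32.1% in the WT libraries and 56.4% and 60% in the restored construct. WT replicates 1, 2, 4 and 5 had the same order in this share as in their share of reads 1 residue further on elsewhere. WT replicate 3 was highest elsewhere and next to lowest here, on 25 reads at Leu558 and 2 at the residue after it. The part of read placement in this share was not tested. The pair of residues together held 1.05% ± 0.183 in WT (SD, n = 5) and 0.671% ± 0.130 in the restored construct (SD, n = 2), without overlap (exact two-sided permutation p = 0.0952).

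**Figure D1:**
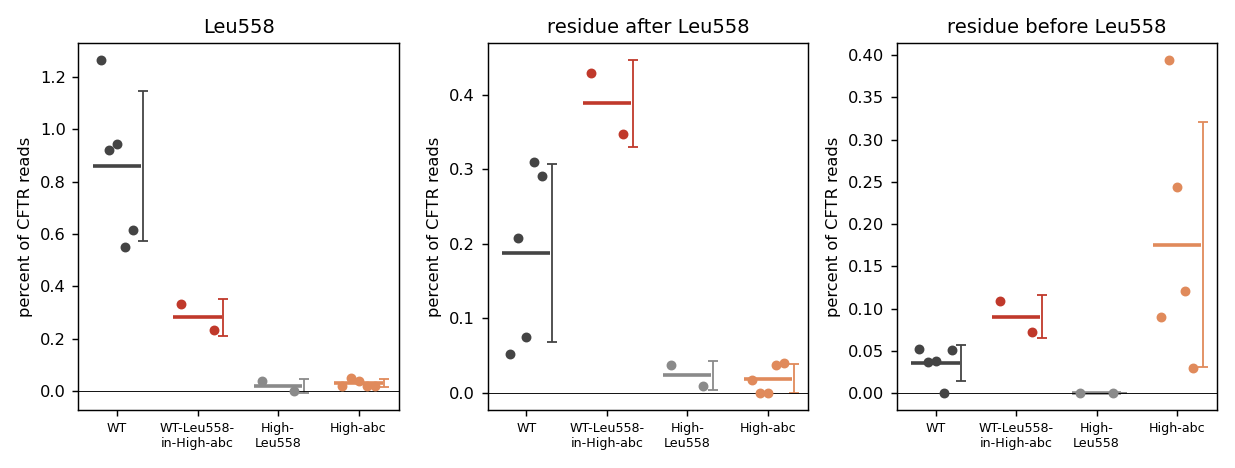
Percent of CFTR reads (vertical axis) at Leu558, the residue after it and the residue before it in each library of the 4 groups. Points are libraries, bars are group means and whiskers are 1 SD. The restored construct lies below WT at Leu558 and above it at both neighbours; at the residue before Leu558, High-Leu558 is at 0.

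Of the other neighbours of Leu558 within 5 residues, the residues 1 before, 3 after and 5 after it were higher in the restored construct than in every WT library. Residue 561, the residue 3 after, held 0.0346%, 0.0736%, 0.113%, 0.155% and 0.171% in WT and 0.178% and 0.507% in the restored construct. The log2 change was 1.63 (SE 0.63, unadjusted p = 0.0132, edgeR adjusted p = 0.761), and it was 0.76 without restored replicate 2 and 0.95 in the 8 libraries. The residue before Leu558 held 0.0520%, 0.0368%, 0.0378%, 0% and 0.0514% in WT and 0.109% and 0.0724% in the restored construct, which is 1.31 on the log2 scale (SE 0.93, edgeR adjusted p = 0.82). The residue 5 after Leu558 had too few reads to be tested, 11 in all WT libraries and 26 in the restored construct, and held 0.0266% ± 0.0238 (SD, n = 5) and 0.101% ± 0.0197 (SD, n = 2). The other 6 neighbours, residues 554, 555, 556, 560 and 562 and the residue 5 before Leu558, overlapped between the groups and were not tested. Among them, residue 560 had 24 reads in WT and 0 of 24356 in the restored construct, so its share could be up to 0.0123%. The window of 10 residues that holds Leu558 and ends at residue 560 held 1.45% ± 0.150 in WT (SD, n = 5) and 1.03% ± 0.121 in the restored construct (SD, n = 2), with no overlap. That log2 change was -0.47 (SE 0.41), and its adjusted p in edgeR was 0.858.

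Further into NBD1, residues 569 and 598 were higher in the restored construct. Residue 569 held 0.0346%, 0.0398%, 0.113%, 0% and 0.0514% in WT and 0.189% and 0.159% in the restored construct, above every WT library. Its log2 change was 2.01 (SE 0.76, unadjusted p = 0.0113). WT replicates 4 and 5 held 0 and 3 reads there, so no fold is given in the 8 libraries. Residue 598 held 0%, 0.0644%, 0.0378%, 0% and 0.0171% in WT and 0.109% and 0.159% in the restored construct, again without overlap, and its log2 change was 2.01 (SE 0.92, unadjusted p = 0.0330). WT replicate 2 held 21 of the 23 WT reads there, so no fold is given without it or in the 8 libraries. Neither passed in edgeR (adjusted p = 0.761 each). Residue 611 also stood above every WT library, at 0.219% ± 0.104 (SD, n = 2) against 0.0717% ± 0.0527 (SD, n = 5), with an edgeR adjusted p of 0.77 and a log2 change of 1.42 that was 0.68 without restored replicate 1.

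Residues 564, 582 and 583 were lower. At residue 564 the WT libraries held 0.242%, 0.110%, 0.151%, 0.242% and 0.188%, and the restored libraries 0.0688% and 0.0145%, below all of them. The log2 change was -1.95 (SE 0.77, unadjusted p = 0.0140). Restored replicate 2 held 1 read there and replicate 1 held 12, so the size of the change rests on replicate 1. Residue 582 held 0.0346%, 0.184%, 0.189%, 0.207% and 0.257% in WT and 0.0573% and 0.0289% in the restored construct, so WT replicate 1 fell between them. Residue 583 held 0.208%, 0.291%, 0.227%, 0.0345% and 0.377% in WT, where replicate 4 was low, and 0.0516% and 0.0579% in the restored construct. Their log2 changes were -1.90 (SE 0.82, with 10 and 2 reads in the restored libraries) and -2.10 (SE 0.79), and all 3 residues had an edgeR adjusted p of 0.761. Residue 570 had reads in WT replicates 1 and 2 only (0.260% and 0.199%), the 2 libraries with the lowest share of reads 1 residue further on. It had 0 reads in the other 3 and in both restored libraries, at least 7.45-fold lower than the WT mean against a floor of 3 reads over the group. Without WT replicate 1 that limit was 4.04-fold.

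The same change of background was then read in libraries that take no part in this comparison, High-abc against High-Leu558, both with the replaced Leu558 codon. In that comparison 13 of 314 residues (4.14%) had an unadjusted p under 0.05 and 1 passed in edgeR (0.318%). Of the 20 residues with the lowest p in the restored construct against WT, 10 in each direction and Leu558 among them, 8 others lay in residues 501 to 650. Of these 8, 6 had the same sign in High-abc against High-Leu558 and 4 had an unadjusted p under 0.05 there. Over all tested residues, without Leu558 and the next one, 24 of 43 had the same sign in residues 501 to 650 and 104 of 269 outside. Of the 11 outside residues 501 to 650, 1 had the same sign (residue 286), and another, residue 953, had an unadjusted p under 0.05 with the opposite sign.

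At residue 569 the High-abc libraries held 0.198%, 0.445%, 0.0812%, 0.149% and 0.0898%, and the High-Leu558 libraries 0.00932% and 0.0197%. At residue 561 High-abc held 0.180%, 0.308%, 0.325%, 0.214% and 0.110%, against 0.0373% and 0.0591% in High-Leu558. All High-abc libraries lay above both High-Leu558 libraries at these residues, and the log2 changes were 3.70 (SE 1.01) and 2.18 (SE 0.78). At residue 564 High-abc held 0.0541%, 0.0343%, 0.0406%, 0.0744% and 0.0599%, and High-Leu558 0.279% and 0.128%, a log2 change of -1.81 (SE 0.68). At residue 582 High-abc held 0.0901%, 0.0514%, 0%, 0.0930% and 0.020%, and High-Leu558 0.214% and 0.187%, a log2 change of -1.78 (SE 0.72). Both residues were again lower in the High-abc sequence, without overlap. Residue 583 did not repeat: High-abc held 0.175% ± 0.106 (SD, n = 5) and High-Leu558 0.0862% ± 0.00337 (SD, n = 2), a log2 change of 0.94 (SE 0.74). Nor did residue 611, with a log2 change of -0.080 (SE 0.81). At residue 598 the log2 change was 1.27 (SE 0.98), and the groups overlapped, with 0% in High-abc replicate 2.

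**Figure D2:**
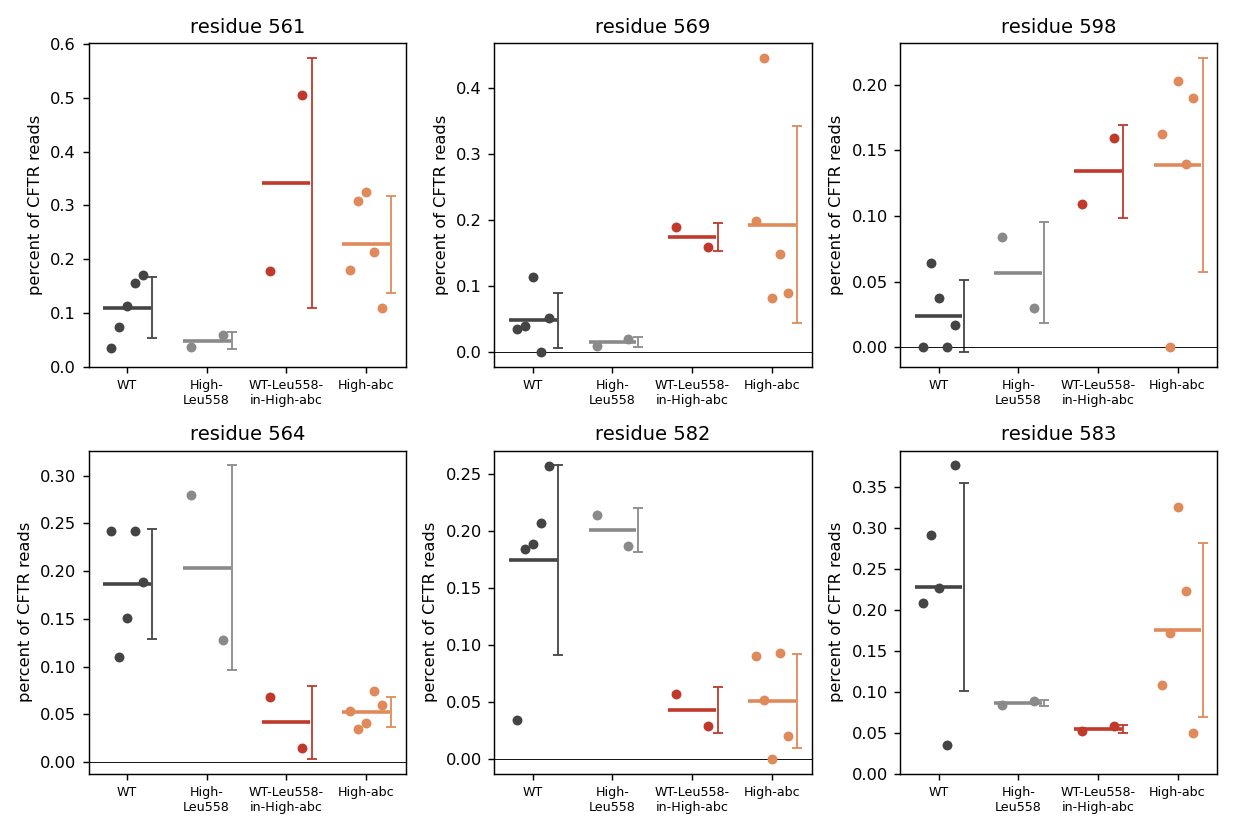
Percent of CFTR reads (vertical axis) at 6 NBD1 residues in each library; the left 2 groups of each panel have the WT background and the right 2 the High-abc background. Points are libraries, bars are means and whiskers are 1 SD. At residue 564 all 7 libraries with the High-abc background lie below all 7 with the WT background, while residue 583 is low in the restored construct and High-Leu558.

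Averaged over both Leu558 codons, 4 of 314 residues (1.27%) passed edgeR's quasi-likelihood test for the High-abc background, 3 higher (0.955%) and 1 lower (0.318%). DESeq2 also called 4. All 4 lay within 13 residues of NBD1. Residue 569 rose by 2.85 on the log2 scale (SE 0.63, edgeR adjusted p = 0.0122), and residue 561 by 1.91 (SE 0.50, edgeR adjusted p = 0.0410). The residue before Leu558 passed with an edgeR adjusted p of 0.0148, and its fitted log2 change of 4.16 (SE 0.98) is no bound because High-Leu558 had 0 reads there. High-abc was at least 12.2-fold above High-Leu558 there, against a floor of 3 reads over the group. Residue 564 fell by 1.88 on the log2 scale (SE 0.51, edgeR adjusted p = 0.0471). Among the 4, only there did the 7 libraries of each background not overlap. The filter on low counts asks for enough reads in only 2 libraries, the size of the smallest group. Residues 564 and 569 and the residue before Leu558 met it only through libraries of the background where they were higher. Their place among the residues tested thus depended on the contrast itself.

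With the numbers 1 to 5 as a replicate block within WT and High-abc, 7 residues and 1 window passed in edgeR. The 7 were the same 4 residues, residues 527 and 582, which were lower (log2 changes of -1.92 and -1.83), and residue 88 near the N-terminal end of the first membrane domain, which was higher (0.88). The window was 81 to 90, which holds residue 88 (log2 change 0.77). In this fit 0 residues passed without High-Leu558 replicate 1 and 2 without restored replicate 2, while 7 to 11 passed without any other single library.

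Without the block the calls rest on single libraries. Without High-abc replicate 2, either High-Leu558 replicate or restored replicate 1, 0 residues passed in edgeR. Without High-abc replicate 3 it called 1, and without WT replicate 1 or restored replicate 2 it called 2. Residue 564 also missed the threshold with TMM factors without NBD1 (edgeR adjusted p = 0.0711), with the protein ends kept (0.0587) and with no filter on low counts (0.244), and residue 561 with no filter (0.205). In the 8 libraries named above edgeR called 0, while 21 residues had an unadjusted p under 0.05. The direction at residues 561, 564 and 569 was the same in each of these fits. At the residue before Leu558 it was the same in each fit that tested this residue. With 1 library left out, that residue was tested in 12 of 14 fits and missed the filter in the others. In the 8 libraries the log2 change at 561 was 1.34. With 1 library left out, log2 changes ran from 2.55 to 3.15 at 569, from 1.46 to 2.17 at 561 and from -2.73 to -1.54 at 564. The edgeR adjusted p then ranged from 0.00279 to 0.213 at 569, from 0.0164 to 0.668 at 561, and from 0.0425 to 0.668 at 564.

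Of the 314 residues, 14 (4.46%) had an unadjusted p under 0.05 for the background over both codons, and 11 of the 14 lay between residues 527 and 598. Leaving out Leu558 and the residue after it, residues 501 to 650 held 11 such residues among 43 tested (25.6%), and the rest of the protein held 3 among 269 (1.12%). In the restored construct against WT alone the shares were 8 of 43 (18.6%) and 7 of 269 (2.60%). The median size of the log2 change in that comparison was 0.97 in residues 501 to 650, 1.46 in residues 521 to 600, and 0.48 elsewhere. These boundaries were drawn with the results known, so the counts are descriptions. Without the block, windows of 10 residues showed no call: 0 of 144 passed (0.0%) in edgeR and in DESeq2, with 6 (4.17%) at an unadjusted p under 0.05 in edgeR and 5 in DESeq2.

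**Figure D3:**
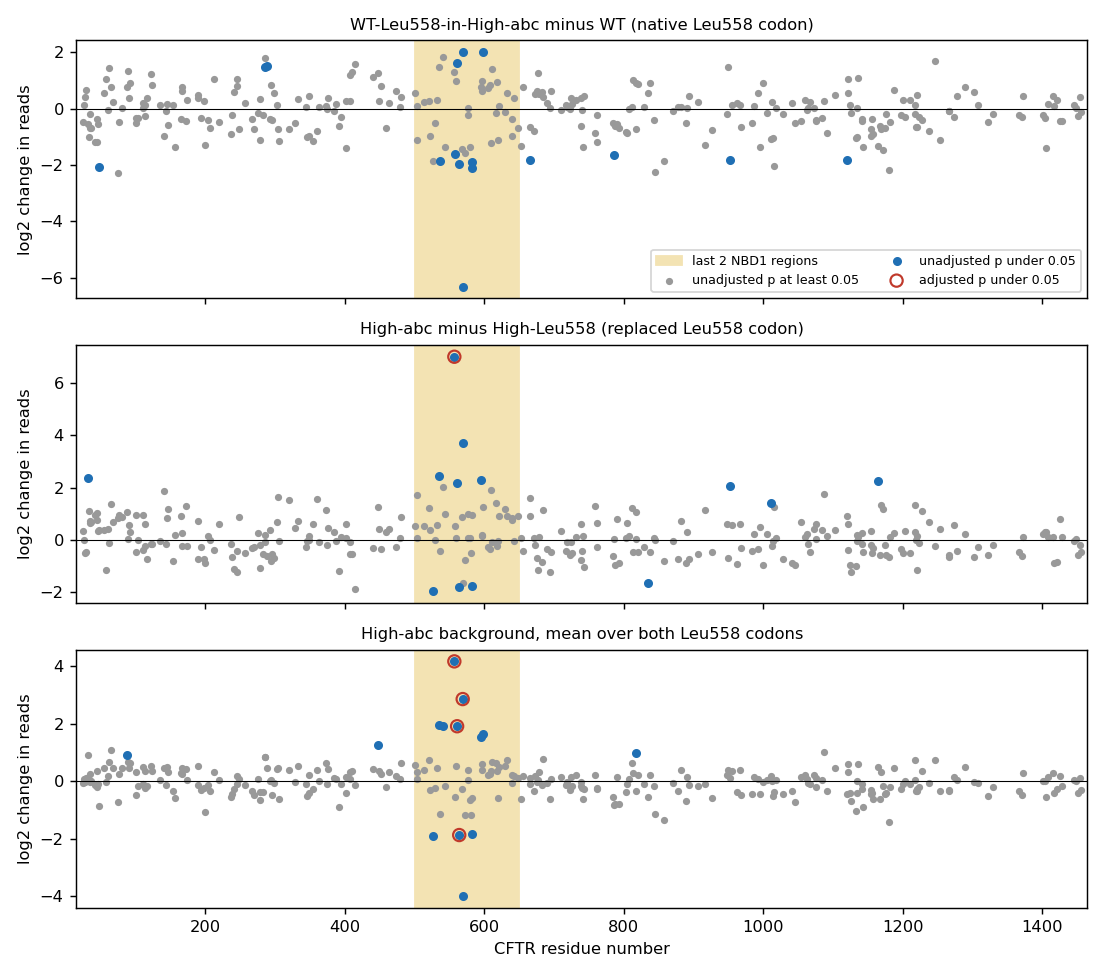
The log2 change in reads (vertical axis) at each of 314 tested residues along CFTR (horizontal axis, residue number) for the background change with the native Leu558 codon, with the replaced codon and over both. The shaded band, the last 2 NBD1 regions, is residues 501 to 650; blue points have an unadjusted p under 0.05 and red rings an adjusted p under 0.05. The point near -6 at residue 570 and the point near 7 at the residue before Leu558 are fitted values against groups with 0 reads and are no bounds.

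The log2 changes of the 2 comparisons, which share no library, were positively correlated in residues 501 to 650, though not in the first part of NBD1. The sign was the same at 24 of the 43 residues. Over the 43 residues in 501 to 650 they correlated at r = 0.54 (Spearman rho 0.48), and over the 26 residues in 521 to 600 at r = 0.68 (rho 0.79). Over the 269 residues elsewhere r was -0.34 (rho -0.33), and over the 18 of them in the first part of NBD1 it was -0.29 (rho -0.35). These correlations are across residues of the same libraries, whose residues are not independent replicates, the fits share 1 estimate of the spread, and what same-numbered WT and High-abc libraries share enters the 2 comparisons with opposite signs. In the 8 libraries with similar reads 1 residue further on, r was 0.66 in 501 to 650 (n = 42), 0.74 in 521 to 600 (n = 25), 0.15 elsewhere (n = 269) and 0.027 in the first part of NBD1 (n = 18). The relation in residues 501 to 650 thus stayed positive, and the one elsewhere was no longer negative. The part of read placement and of the numbered sets in it was not tested. The difference of the background change between the Leu558 codons passed at 0 of 314 residues (0.0%) and 0 of 144 windows (0.0%) by either tool. At an unadjusted p under 0.05 edgeR gave 18 residues (5.73%) and 6 windows (4.17%), and DESeq2 gave 22 and 8.

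**Figure D4:**
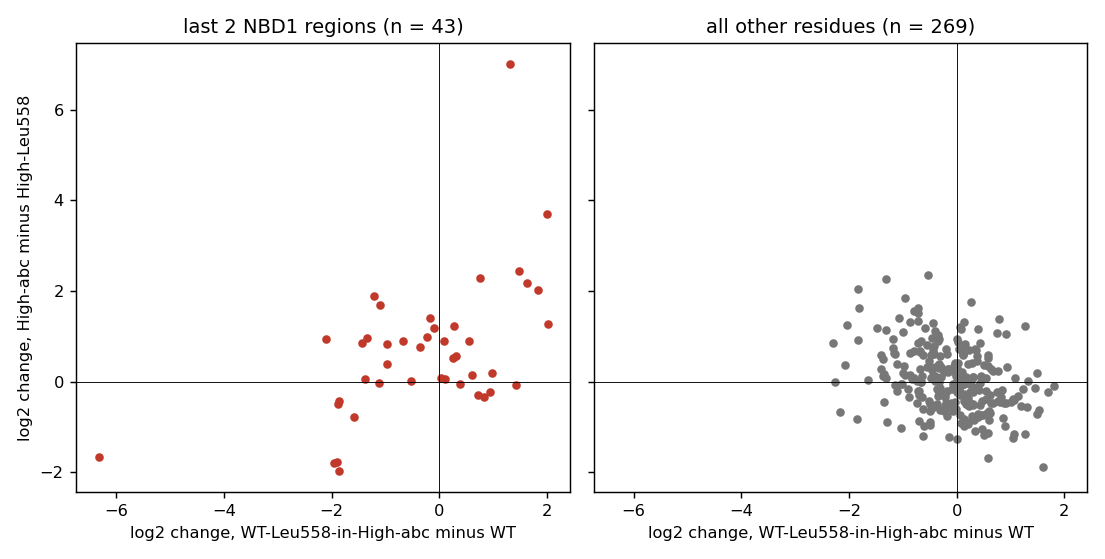
The log2 change of the restored construct against WT (horizontal axis) and of High-abc against High-Leu558 (vertical axis) at each tested residue, without Leu558 and the residue after it. Points are residues. The 43 in residues 501 to 650 slope upward (r = 0.54), 24 of them with the same sign in both comparisons, and the 269 others slope the other way (r = -0.34). The 43 include residue 570 and the residue before Leu558, with fitted values against groups with 0 reads.

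The same libraries and counts were also compared as whole profiles, which is not separate support for the residue results. Within each of 8 regions, libraries of the same background were compared with libraries of different backgrounds by the mean Spearman correlation of their counts, with library labels permuted within each Leu558 codon (441 relabellings, one-sided exact test, p adjusted over the 8 regions). Leu558 and the residue after it were left out of these profiles. In residues 501 to 560, named the alpha-subdomain region of NBD1 here, the correlation was 0.513 within a background and 0.443 between backgrounds. The difference was 0.0704 (exact permutation p = 0.00454, adjusted 0.0181). In residues 561 to 650, the last part of NBD1, it was 0.577 and 0.494, a difference of 0.0824 (exact permutation p = 0.00227, the smallest possible, adjusted 0.0181). In the other 6 regions the difference was between -0.0201 and -0.00267 (exact permutation, adjusted p = 0.982 each).

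With the native codon alone, the restored construct and WT, the difference was -0.0144 (exact permutation p = 0.667) in residues 501 to 560 and 0.0470 (p = 0.190) in residues 561 to 650, over 21 relabellings. The profile test therefore rests on both codons. In both NBD1 regions its adjusted p was 0.0635 without High-Leu558 replicate 1 and 0.0952 without restored replicate 2 (exact permutation). In the 8 libraries the differences were 0.140 and 0.125, with an exact permutation p of 0.0556 in each, the smallest that 36 relabellings gave. This test was added with the residue results known, and it takes no account of the numbered sets.

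Outside NBD1, the residues with the lowest p did not repeat in High-abc against High-Leu558. Residues 286 and 289 of the first membrane domain were higher in the restored construct. Residue 286 held 0.277%, 0.147%, 0.151%, 0.328% and 0.223% in WT and 0.539% and 0.738% in the restored construct. Residue 289 held 0.0693%, 0.319%, 0.416%, 0.397% and 0.548% in WT and 0.785% and 1.23% in the restored construct. Neither overlapped, and the log2 changes were 1.48 (SE 0.66) and 1.52 (SE 0.69), with an edgeR adjusted p of 0.761 each. Between High-abc and High-Leu558 they were 0.18 (SE 0.70) and -0.63 (SE 0.70). Residues 62, 122, 677 and 1246 were higher by log2 changes of 1.24 to 1.69 with an edgeR adjusted p of 0.77 each (0.76 at 62 in the 8 libraries, and 1.10 at 1246 without restored replicate 1), and WT and the restored construct overlapped at 677 only.

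Residues 47, 666, 786, 953 and 1120 were lower, by log2 changes of -2.07 to -1.66 (edgeR adjusted p from 0.761 to 0.77), and overlapped between the groups at each. Residue 666 of the regulatory region held 0.883%, 1.59%, 0.491%, 0.207% and 0.137% in WT and 0.235% and 0.159% in the restored construct. The High-abc libraries held 0.883%, 1.83%, 0.284%, 0.307% and 0.230%, so replicates 1 and 2 were the highest in both groups of 5. Residue 1120 showed the same order, with 0.745% and 0.564% in WT replicates 1 and 2, 0.667% and 0.651% in those of High-abc, and at most 0.206% in the other 10 libraries. With WT and High-abc libraries 4 and 5 only, the log2 change at 666 was 0.22 in place of -1.82, at 1120 -0.39 in place of -1.83, at 953 -0.32 in place of -1.83 and at 47 -0.92 in place of -2.07. Single libraries moved these residues too. Without restored replicate 1 the log2 change was -2.46 at 1120, without restored replicate 2 it was -2.68 at 47, and without WT replicate 2 it was -1.03 at 666. At residue 786 restored replicate 2 had 0 reads: the log2 change of -1.66 was -0.85 without it, and no fold is given without replicate 1.

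Among windows of 10 residues that were higher in the restored construct, the lowest p was at 971 to 980 in the second membrane domain. It held 0.208%, 0.260%, 0.151%, 0.224% and 0.154% in WT and 0.332% and 0.680% in the restored construct, without overlap (log2 change 1.22, SE 0.37, edgeR adjusted p = 0.528). The window 281 to 290, which contains residues 286 and 289, held 0.968% ± 0.450 in WT (SD, n = 5) and 2.19% ± 0.445 in the restored construct (SD, n = 2). Windows 121 to 130, 401 to 410 and 471 to 480 followed, with log2 changes of 0.59 to 0.88. Among the lower windows the lowest p was at 851 to 860, with 0.444% ± 0.126 in WT (SD, n = 5) and 0.194% ± 0.0903 in the restored construct (SD, n = 2), where the log2 change was -1.05 (SE 0.37) with an adjusted p of 0.735 in edgeR. Windows 351 to 360, 581 to 590, 661 to 670 and 1091 to 1100 had log2 changes of -1.22 to -0.72 (edgeR adjusted p = 0.858 each). The -1.22 at 661 to 670 was -0.15 in the 8 libraries. Without restored replicate 1 the log2 change was -1.71 at 851 to 860 and -1.59 at 1091 to 1100. In all, 7 windows (4.86%) lay above every WT library and 4 (2.78%) below.

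By region, the first part of NBD1 (the residues after 390 up to 500) held more reads in the restored construct, and residues 501 to 560 and the second membrane domain (841 to 1200) held fewer. The first part held 5.72%, 4.84%, 4.92%, 5.90% and 6.06% of the reads in WT and 6.78% and 7.27% in the restored construct. Residues 501 to 560 held 4.24%, 4.35%, 5.08%, 4.46% and 5.42% in WT and 4.04% and 4.07% in the restored construct, and the second membrane domain 25.0% ± 1.81 (SD, n = 5) and 22.0% ± 0.603 (SD, n = 2). In these 3 regions the groups did not overlap, and the log2 ratios were 0.36 (SE 0.08), -0.21 (SE 0.07) and -0.18 (SE 0.05). Each had the smallest exact permutation p of 0.0952, 0.254 after adjustment over 8 regions, so none passed. The other 5 regions overlapped, with an exact permutation p from 0.190 to 0.952. Between High-abc and High-Leu558 the means of the 3 regions ran the other way. They were 5.68% and 6.44% in the first part of NBD1, and 4.40% and 3.29% in residues 501 to 560. In the second membrane domain they were 25.1% and 24.5%. These differences were not tested. The 3 NBD1 regions together held 16.9% ± 1.39 in WT (SD, n = 5) and 17.9% ± 0.316 in the restored construct (SD, n = 2, exact permutation p = 0.286).

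**Figure D5:**
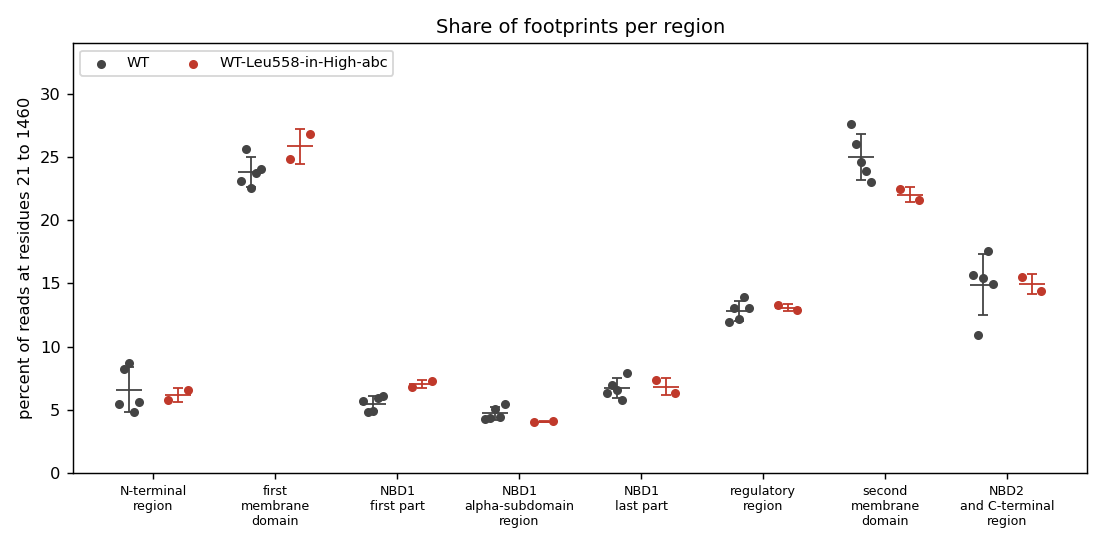
Percent of the reads, the 20 residues at each end of the protein left out (vertical axis), in each of 8 regions for WT and the restored construct. Points are libraries, horizontal marks are means and whiskers are 1 SD. The groups do not overlap in the first part of NBD1, the alpha-subdomain region and the second membrane domain.

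Of the 5 most occupied residues of each group, 2 were shared. Residue 1308 in the NBD2 region ranked first in both groups, with 2.47% ± 0.994 of reads in WT (SD, n = 5) and 2.73% ± 0.588 in the restored construct (SD, n = 2). Residue 948 ranked next in both, with 1.90% ± 0.799 (SD, n = 5) and 1.71% ± 0.240 (SD, n = 2). The next 3 were 1011, 375 and 1075 in WT, which ranked 14, 6 and 10 in the restored construct, and 732, 608 and 88 in the restored construct, which ranked 6, 12 and 11 in WT. In the 8 libraries the log2 change was 0.098 at 1011, in place of -1.07, and 0.21 at 608, in place of 0.83. At residue 88 WT held 0.693%, 0.788%, 0.793%, 0.449% and 0.702% and the restored construct 1.06% and 1.30%, without overlap. Its log2 change was 0.75 (SE 0.59), with an adjusted p of 0.843 in edgeR. The 20 residues most occupied in the High-abc and High-Leu558 libraries held 17.5% ± 2.97 of reads in WT (SD, n = 5) and 18.0% ± 0.546 in the restored construct (SD, n = 2, exact permutation p = 0.762).

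The balance of reads along the protein was not shown to differ. Polarity, the mean read position scaled from -1 at the start to 1 at the end, was -0.0574 ± 0.0372 in WT (SD, n = 5) and -0.0868 ± 0.0248 in the restored construct (SD, n = 2, exact permutation p = 0.476). The ratio of reads in the 30 residues before Leu558 to those in the 30 residues that follow the residue after it was 0.536, 0.513, 0.741, 0.877 and 0.679 in WT and 0.846 and 0.923 in the restored construct. WT replicate 4 lay between the latter 2, and the log2 ratio was 0.43 (SE 0.16, exact permutation p = 0.190). With 15 or 60 residues on each side it was -0.34 or -0.14, so the direction depended on the length chosen.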

How the data were processed

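RNase I footprints were recovered by pelleting ribosomes and turned into libraries by linker ligation, circularization and PCR, per the labels' protocols. Per the file headers, each deposited file lists read counts and percent of CFTR reads per residue. The deposited percent matched the deposited count over the library total within 0.0005, so counts were used and missing residues were taken as 0. HISAT2 and hg38 are named in the submitters' processing notes. Neither the reference sequence for mapping nor the assignment of a read to its residue is stated in those notes or the labels. A mapping reference with other synonymous codons than a construct could change counts near replaced codons.

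The first and last 20 residues were left out. edgeR 4.0.16 (R 4.3.3) fitted all 14 libraries with TMM factors, filterByExpr, glmQLFTest and Benjamini-Hochberg adjustment; 314 of 1440 residues with 64.5% of reads and all 144 windows were tested. The coefficient of variation between libraries beyond counting was 53.4% per residue and 31.2% per window. SE is the log2 change over the square root of F. Occupancy is reads over the library's mean per residue. Region shares and profiles were tested by exact permutation of library labels (Python 3.11.15, scipy 1.17.1). Regions end at rounded residues and only approximate domains. Since same-numbered WT and High-abc libraries deviated together for all 5 numbers, a block on them within these groups was added. Limits from 0 reads cover counting error only. Named were Leu558 and 5 neighbours on each side, the 10 residues and 5 windows in each direction with the lowest p, residues that passed over both codons, and the 5 most occupied residues per group. The members, lists, tests and boundaries were chosen with earlier results of these data known. The fits were tested on simulated data of independent libraries, without numbered sets and with the same spread at every residue. Each simulation changed 200 residues at once, and a mean of 409 (restored construct against WT) or 446.1 (both codons) residues were tested. Recovery may be lower where few residues change, as the adjustment is then stricter. For the restored construct against WT the fits recovered 44.7% of tested 4-fold changes and 94.75% of tested 16-fold changes. Over both codons they recovered 78.4% and 100%. DESeq2 1.42.0, other scalings, filters, windows and left-out libraries were alternatives.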

Additional observations from a re-analysis of the deposited data

Results flagged for a closer look

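In 63 measures tested for a WT library far from the other 4, 5 stood out, and chance alone gives about 1 in 20. WT replicate 2 had 32630 CFTR reads, against 2647 to 5839 in the other WT libraries. WT replicate 5 had 19.4% of its reads in NBD1, against 16.1% to 16.5%, so the WT mean of NBD1 is raised by 1 library. The residue 5 before Leu558 held 0.0693% of reads in WT replicate 1 and at most 0.0173% in the others. This was 4 reads, and WT replicate 2 also had 4 there. Residue 555 held 0.0685% in WT replicate 5 (4 reads) and at most 0.0184% in the others, with 6 reads in WT replicate 2. Both high values lie below the 0.113% that 0 reads in WT replicate 3 leave possible, so counting error cannot be told apart from a library difference there. Residue 677 held 0.259% in WT replicate 4 and 0.0674% to 0.104% in the others, so its overlap with the restored construct (0.212% and 0.347%) comes from that library.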

How the results depend on the processing

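The count of 0 residues and 0 windows for the restored construct against WT held under library totals, TMM factors without NBD1, DESeq2, other filters, windows and ends, the 8 libraries, and with each library left out. The exceptions were no filter, which gave 1 residue (also 1 for the difference between Leu558 codons), and the replicate block. Replicate numbers are given in the labels with no stated meaning, and deviations of same-numbered restored and WT libraries correlated at -0.0066 and -0.0355, so the numbers are not shown to pair these groups; other pairs reached 0.148. With the replicate block, 30 residues and 21 windows passed, or 23 and 15 with only the 2 groups in the fit. Leu558 passed with the replicate block, at -2.03 on the log2 scale (SE 0.42, edgeR adjusted p = 0.00102), or -2.15 (SE 0.54, edgeR adjusted p = 0.00523) with the 2 groups. The block gave 24 residues and 22 windows for High-abc against High-Leu558, 6 residues and 1 window over both codons, and 42 residues and 39 windows for the difference between codons. The cause was not tested. The count for High-abc against High-Leu558, 1 residue, was 0 with library totals, with a mean of at least 20 reads (83 residues tested), without the most covered 1% of residues and in the 8 libraries, 2 with only its groups, and 0 to 1 with a library left out. The count over both codons, 4, was 0 in the 8 libraries and with a mean of at least 20 reads, and 0 to 5 with a library left out. With the replicate block in the groups of 5 it was 7 residues and 1 window, and 0 to 11 residues and 0 to 2 windows with a library left out.

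With TMM factors without NBD1 the median log2 change of all residues was 0.05 in place of -0.05, and the residues at an unadjusted p under 0.05 split into 9 higher and 9 lower in place of 5 and 11. Among region shares, the N-terminal region (-0.05 on the log2 scale) was 0.018 without the most covered 1% and 0.11 with boundaries 10 residues later, and -0.15 to 0.066 with a library left out. The last part of NBD1 (0.03) was -0.092 without them and -0.052 with boundaries 10 residues earlier, and -0.069 to 0.13 with a library left out. The NBD2 region (0.02) was -0.0061 without the most covered 1% and -0.087 to 0.083 with a library left out. The flank ratio was -0.34 with 15 and -0.14 with 60 residues. The share of the most occupied residues (0.05) was -0.081 without the most covered 1% and -0.025 with 10 residues. The profile differences in residues 501 to 560 and 561 to 650 were 0.0572 to 0.0912 and 0.0704 to 0.101 with a library left out, and 0.140 and 0.125 in the 8 libraries. None of these values passed its test in the comparison with the native codon.

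In the 8 libraries the log2 change turned to 0.22 at residue 666, -0.031 at 1308, 0.33 at 948, 0.10 at 1011 and 0.12 at 1075. With the replicate block and 2 groups it turned to -0.16 at 1308, -0.24 at 375 and -0.018 at 732, and with a mean of at least 20 reads to -0.13 at 375. With a library left out it ran from -0.21 to 0.37 at 1308, from -0.36 to 0.13 at 948 and from -0.18 to 0.37 at 375. The causes were not tested. Tests by amino acid, by amino acids with 1 codon and by native codon were not run, since they need the CFTR reading frame. Depth limits single residues: where 0 reads were counted, shares of up to 0.113% in WT replicate 3 and 0.00919% in WT replicate 2 remain possible.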
